A study of Mus musculus with 16 samples.

Results

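The interleukin-12 (IL-12) family subunit genes measured on these arrays were Il12a, Il12b, Il23a, Il27 and Ebi3, chosen by gene symbol or synonym. These are 5 genes, each with 1 probe, of 17465 features tested. RNA was measured on 16 single-colour microarrays of adherent peritoneal cells from male mice of strain BALB/cByJ-Lpin1fld/J. There were 4 arrays in each of 4 groups, which were fld cells with LPS, fld cells untreated, control cells with LPS and control cells untreated. The fld mice carry fatty liver dystrophy, a mutation in Lpin1, which encodes lipin-1, an enzyme that dephosphorylates phosphatidate, and the control mice were heterozygotes of that strain, so the control cells also carry 1 mutated copy and no wild-type group was measured. LPS, the bacterial lipopolysaccharide sensed by the receptor TLR4, was given at 100 ng/ml for 5 h, and all cells were held in medium without serum during treatment. The mutation was present in every cell of the mouse and was not limited to macrophages. The study names 4 control and 4 fld mice, and the labels do not say whether the arrays of a group come from separate mice. If they do not, the p-values measure only the spread between these arrays.

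The IL-12 family cytokines are heterodimers built from a few shared subunits. The subunit p35, encoded by Il12a, pairs with p40, encoded by Il12b, to form IL-12, which drives interferon-gamma production by T and NK cells. The same p40 pairs with p19, encoded by Il23a, to form IL-23, which sustains IL-17-producing lymphocytes. The subunit p28, encoded by Il27, pairs with EBI3 to form IL-27, and p35 with EBI3 forms IL-35. Macrophages and dendritic cells are major producers of IL-12, IL-23 and IL-27 after microbial stimulation, and transcription factors of the NF-kB, IRF, C/EBP, AP-1 and PU.1 families act at these genes.

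Promoter windows from RefSeq, build GRCm38.p6, were found for 3 of the 5 genes, 250 bases before to 50 bases after the annotated start. Those of Il12b and Ebi3 are shown because both genes rose with LPS in both genotypes, and the second of the 2 windows of Il12a because that gene passed the test in fld cells. All 3 windows lie on the + strand, Il12b at chr11:44399813-44400112, Ebi3 at chr17:55952373-55952672 and Il12a at chr3:68691174-68691473, and capitals mark every match to a motif searched.
Il12b: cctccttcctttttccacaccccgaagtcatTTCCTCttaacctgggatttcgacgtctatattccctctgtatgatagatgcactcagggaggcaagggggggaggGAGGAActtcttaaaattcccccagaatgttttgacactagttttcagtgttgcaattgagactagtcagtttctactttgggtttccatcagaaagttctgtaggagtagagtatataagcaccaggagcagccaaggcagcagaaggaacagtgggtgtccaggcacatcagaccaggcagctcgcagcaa
Ebi3: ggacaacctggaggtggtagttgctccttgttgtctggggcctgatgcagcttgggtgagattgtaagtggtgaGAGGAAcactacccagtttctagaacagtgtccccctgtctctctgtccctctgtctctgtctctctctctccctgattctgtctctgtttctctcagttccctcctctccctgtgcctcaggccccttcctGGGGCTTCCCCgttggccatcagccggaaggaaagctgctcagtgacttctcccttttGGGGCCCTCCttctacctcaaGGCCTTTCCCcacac
Il12a, window 2: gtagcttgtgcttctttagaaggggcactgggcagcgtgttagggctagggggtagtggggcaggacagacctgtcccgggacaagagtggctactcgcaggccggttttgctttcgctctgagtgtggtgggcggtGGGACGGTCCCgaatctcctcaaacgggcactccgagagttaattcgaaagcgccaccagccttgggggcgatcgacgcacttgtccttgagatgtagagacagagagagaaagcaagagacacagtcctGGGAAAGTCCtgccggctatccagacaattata
The motifs, read on both strands, were a loose NF-kB pattern of GGG and CC with any 5 letters between, the narrower NF-kB consensus by its name, which is a subset of the loose pattern, a pair of GAAA with any 2 letters between for IRF factors, TTNNGNAA for C/EBP, GAGGAA for PU.1 and TGANTCA for AP-1. The Il12b window held 2 matches to GAGGAA, beginning at positions -219 and -143 from the start site, and GAGGAA was present in 28.3% of 32841 windows of this length. In the Ebi3 window the NF-kB consensus matched at positions -44 and 15, and 8.46% of all windows held a match. Counting these, Ebi3 had 4 matches to the loose NF-kB pattern, which 50.8% of windows held, and 1 to GAGGAA at position -176. The second Il12a window held 3 matches to the loose pattern, an overlapping pair from positions -113 and -112 and 1 from position 18, and none to the narrower consensus. Its first window, 300 bases around an earlier start, matched none of the motifs. A match is only a run of letters, and its absence says only that these letters are not in the window.

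Levels are given as log2 of the scanner's processed intensity over the 75th percentile of that array, so that 0 is a probe as bright as that percentile and each unit is 1 doubling. Differences are fitted with limma over all 16 arrays, and adjusted p is Benjamini-Hochberg over all 17465 features with a threshold of 0.05. A probe was called well above background on an array by the scanner's own flag. Il12a, Il27 and Ebi3 were well above background on all 16 arrays. Il12b was so on all 4 arrays only in control cells with LPS, and Il23a in both LPS groups, so these 2 probes entered the test through LPS arrays and their differences there were partly set by that entry rule. Levels of different probes are not compared with each other, since brightness depends on the probe.

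The array 75th percentile ranged from 189 to 627 intensity units, and 58.8% to 65.4% of spots were well above background. Each group was hybridised on a slide of its own, and effects of slide and of group cannot be told apart. For Lpin1, the mutated gene, 3 neighbouring probes had a mean log2 level of -6.72 to -5.45 on the 6 arrays labelled fld replicates 1 to 3. On the 8 control arrays this mean was -3.53 to -2.86. On the arrays labelled fld replicate 4 the mean was -3.03 with LPS, inside the control range, and -1.62 untreated, above it. A brighter Lpin1 probe, left out of this mean, ranged from -1.81 to -1.3 on the control arrays. In fld replicates 1 to 3 it was -1.69 to -1.4 with LPS, inside that range, and -2.15 to -1.84 untreated, below it. On the arrays labelled fld replicate 4 this probe was at -0.33 with LPS and -0.63 untreated, both above the control range. These 2 arrays go against their label, and the LPS and genotype differences of the members and named genes are given, or summarised, without them as well. After scaling, the median of all spots was higher by 0.40 in fld than in control cells with LPS, by 0.18 in fld than in control cells untreated, and by 0.24 and 0.02 in LPS than in untreated cells of fld and control mice, and small differences are to be read against these shifts.

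With LPS, 4 of the 5 subunit genes were higher in fld cells and 3 of 5 in control cells, at an adjusted p under 0.05 in limma. Over all features, 21.6% were called higher with LPS in fld cells (39.6% in either direction) and 14.5% in control cells (29.4% in either direction). Il12b, Il23a and Ebi3 were called in both genotypes, Il12a in fld cells, and Il27 in neither. The arrays of the LPS and untreated groups did not overlap for the same 4 genes in fld cells and the same 3 in control cells, where 37.7% and 33.2% of all features did not overlap. Since Il12b and Il23a entered the test through LPS arrays, their calls and their lack of overlap were partly set by that entry rule. For Il12b in fld cells the lack of overlap also ranks signals that were not well above background. These were LPS replicate 3 at -5.00 and the highest untreated array at -5.34.

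**Figure D1:**
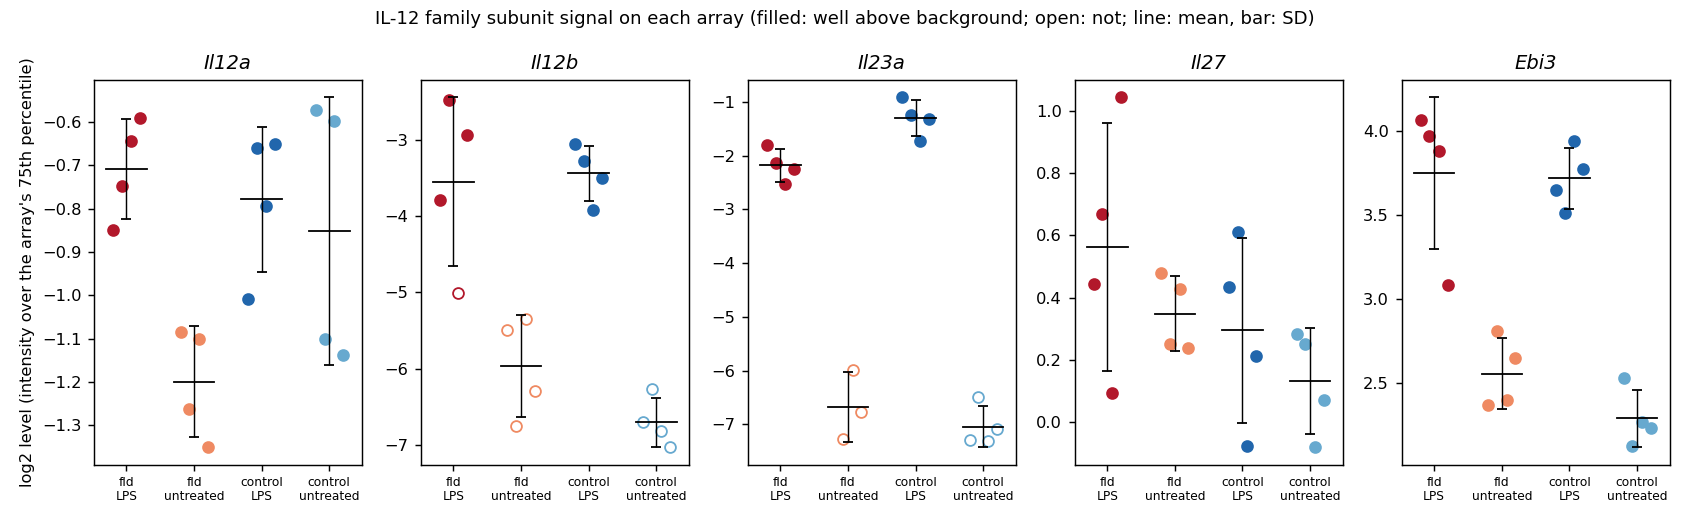
Log2 level of each subunit gene, as intensity over the array's 75th percentile, on each of the 16 arrays in 4 groups, with a scale of its own for each gene. Filled points are well above background, open points are not, the line is the mean and the bar the SD; Il23a has 3 untreated fld points. Il12b and Il23a are open on every untreated array, and the 4 Il23a points of fld cells with LPS lie below the 4 of control cells with LPS.

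Il23a, the IL-23-specific p19 subunit (gene 83430), was read by a probe at chr10:127798207-127798266 in the scanner file's coordinates, for which the sources used here name no genome build. Its log2 level was -1.80, -2.13, -2.53 and -2.25 in fld cells with LPS, and -7.28, -5.99 and -6.78 in untreated fld cells, where replicate 1 was left out for a background outlier flag (-5.70 if kept). It was -0.91, -1.23, -1.73 and -1.31 in control cells with LPS, and -7.29, -6.50, -7.31 and -7.10 in untreated control cells. The probe was well above background on all 8 LPS arrays and on no untreated array, so the size of the LPS response has only a lower bound. With LPS it was at least 7.54-fold higher than in untreated cells of fld mice (fitted log2 difference 4.51, SE 0.29, limma adjusted p = 1.82e-07) and at least 15.1-fold higher in control mice (5.75, SE 0.27, limma adjusted p = 9.52e-09). Each bound sets the LPS mean against the lowest signal that the scanner called well above background on the untreated arrays, or against the probe's own value where higher. A bound carries no interval and holds for the scanner's processed intensity.

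Il12b, the p40 subunit shared by IL-12 and IL-23 (gene 16160), was read by 10 repeated spots of 1 probe at chr11:44370372-44370431. Its log2 level was -3.79, -2.49, -5.00 and -2.93 in fld cells with LPS, and -5.49, -6.75, -5.34 and -6.28 in untreated fld cells. It was -3.06, -3.28, -3.92 and -3.51 in control cells with LPS, and -6.69, -6.27, -6.81 and -7.02 in untreated control cells. No untreated array was well above background, and among LPS arrays only fld replicate 3 was not, with 2 of its 10 spots well above. Even with LPS the probe stayed dim, at 3.29% to 17.8% of the array's 75th percentile in fld cells and 6.63% to 12.0% in control cells. LPS gave at least 2.91-fold more signal in fld cells (fitted log2 difference 2.41, SE 0.44, limma adjusted p = 0.000749) and at least 3.42-fold more in control cells (3.26, SE 0.44, limma adjusted p = 7.00e-05). These bounds carry no interval either, and the fld LPS mean includes replicate 3, which was not well above background.

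The repeated spots show how much of the Il12b spread lies within an array. The SD over the spots of 1 array was 0.11 to 0.22 on the LPS arrays and reached 0.77 on an untreated control array, where 5 of its 10 spots held the scanner's surrogate for signals too dim to subtract. Between the 4 fld arrays with LPS the SD was 1.11, against 0.36 between the 4 control arrays with LPS.

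**Figure D2:**
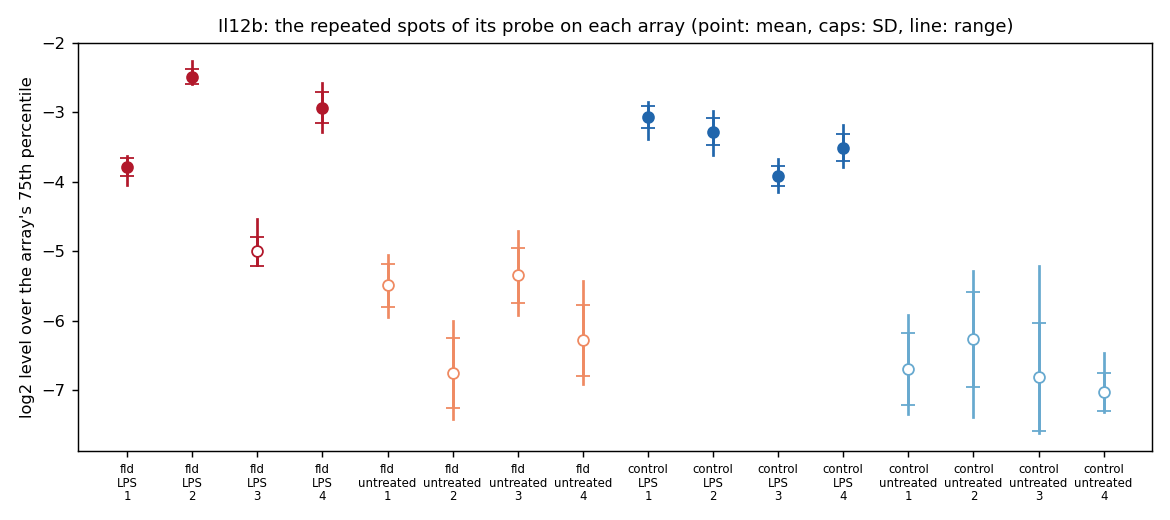
Log2 level of the repeated Il12b spots on each of the 16 arrays, over the array's 75th percentile. Points are means over the spots used, caps the SD, lines the range, and open points are arrays not well above background. The fld LPS array of replicate 3, at -5.00, lies near the untreated fld arrays of replicates 1 and 3.

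Ebi3, the shared subunit of IL-27 and IL-35 (gene 50498), was read at chr17:54116438-54116497 and was bright on every array. Its log2 level was 4.07, 3.97, 3.88 and 3.08 in fld cells with LPS, and 2.37, 2.81, 2.40 and 2.65 in untreated fld cells. It was 3.65, 3.52, 3.94 and 3.77 in control cells with LPS, and 2.53, 2.13, 2.27 and 2.24 in untreated control cells. All LPS arrays lay above all untreated arrays of either genotype, and the lowest LPS array was the one labelled fld replicate 4. LPS raised Ebi3 by 2.29-fold in fld cells (log2 difference 1.19, SE 0.19, limma adjusted p = 0.000237) and by 2.70-fold in control cells (1.43, SE 0.19, limma adjusted p = 5.37e-05). Without both arrays labelled fld replicate 4, the log2 difference in fld cells was 1.45.

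Il27, the p28 subunit that partners EBI3 (gene 246779), was read at chr7:122689181-122689240 and did not move past the threshold in any comparison. Its log2 level was 0.44, 0.67, 0.09 and 1.04 in fld cells with LPS, and 0.48, 0.25, 0.43 and 0.24 in untreated fld cells. It was 0.43, 0.61, -0.08 and 0.21 in control cells with LPS, and 0.28, 0.25, -0.08 and 0.07 in untreated control cells. All 4 groups overlapped. The LPS difference was 0.21 in fld cells (95% interval -0.18 to 0.60, limma adjusted p = 0.372) and 0.16 in control cells (-0.23 to 0.56, limma adjusted p = 0.550), and the fld value turned to -0.03 when arrays were centred on their medians. In these arrays, then, the signal of 1 of the IL-27 subunits rose with LPS at 5 h and that of the other did not pass the test.

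Il12a, the p35 subunit of IL-12 and IL-35 (gene 16159), was read at chr3:68795192-68795251. Its log2 level was -0.85, -0.75, -0.64 and -0.59 in fld cells with LPS, and -1.09, -1.26, -1.10 and -1.35 in untreated fld cells. It was -1.01, -0.66, -0.80 and -0.65 in control cells with LPS, and -0.57, -1.10, -0.60 and -1.14 in untreated control cells. The fld groups did not overlap, while the untreated control arrays fell into a higher and a lower pair that spanned the control LPS arrays. LPS raised it by 1.40-fold in fld cells (log2 difference 0.49, SE 0.14, limma adjusted p = 0.0132), and the difference in control cells was 0.07 (95% interval -0.23 to 0.37, limma adjusted p = 0.744). The call in fld cells was lost under 4 alternatives. Among these were centring arrays on their medians (0.25, limma adjusted p = 0.242) and leaving out both arrays labelled fld replicate 4 (0.40, adjusted p = 0.0806). The difference between the 2 responses was 0.42 (95% interval -0.01 to 0.84, limma adjusted p = 0.548), so the response of Il12a was not shown to differ by genotype.

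An exact two-sided permutation test of each member's LPS response gave p = 0.0286, the smallest that 70 labellings of 4 against 4 arrays or 35 of 3 against 4 allow, for Il12b, Il23a and Ebi3 in both genotypes and for Il12a in fld cells. For Il12b and Il23a this p-value was partly set by their entry through LPS arrays. For Il12b in fld cells it also rests on LPS replicate 3, an array not well above background. Without both arrays labelled fld replicate 4, the fitted LPS difference in fld cells was 2.10 for Il12b (limma adjusted p = 0.00855) and 4.48 for Il23a (adjusted p = 9.42e-06). Normexp background correction, with an offset of 50, was also run in place of the scanner's processed intensity. Il12b was then no longer called (1.43 in fld cells, limma adjusted p = 0.0702, and 1.40 in control cells, adjusted p = 0.0880). Neither was Ebi3 (0.82 in fld cells, limma adjusted p = 0.144, and 0.99 in control cells, adjusted p = 0.143). When extreme local backgrounds were also reset, at the same offset, both genes were called again in both genotypes. The log2 differences were then 0.98 in fld and 0.83 in control cells for Il12b, and 1.09 in fld and 1.42 in control cells for Ebi3. An added offset narrows log2 differences of dim probes, so the normexp values of Il12b are not on the scale of its fold bounds. Why the calls were lost was not tested.

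**Figure D3:**
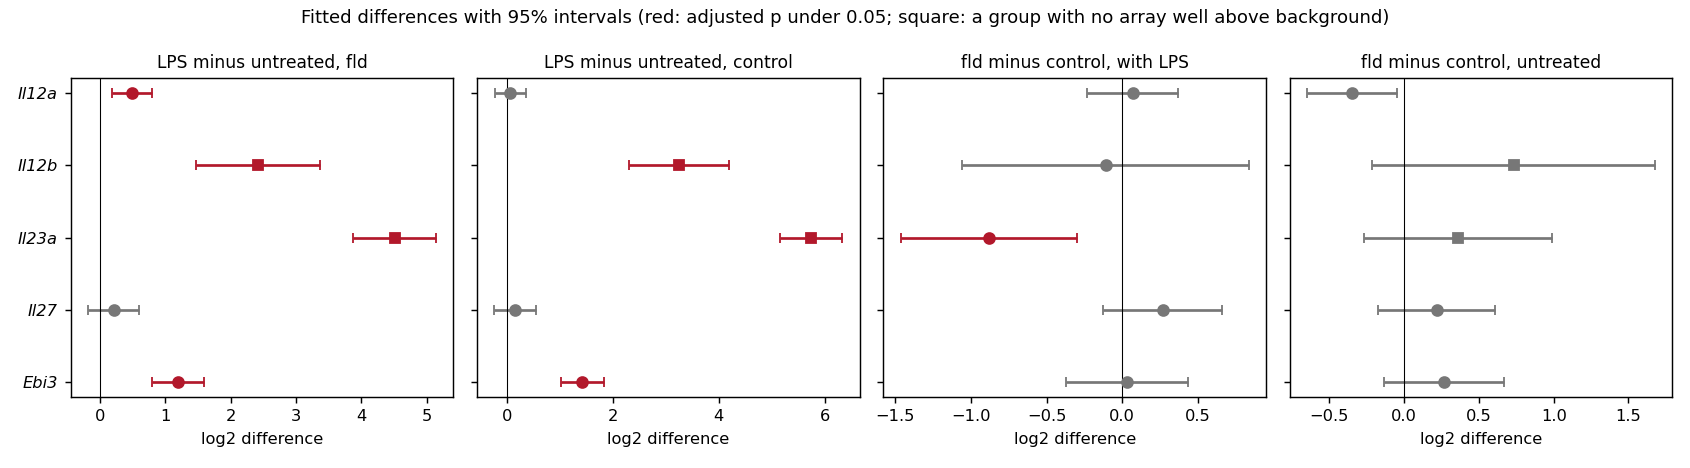
Fitted log2 difference and 95% interval of each subunit gene in 4 comparisons from the limma fit over 16 arrays, each panel with its own axis. Red marks an adjusted p under 0.05 and squares mark genes where 1 or both groups had no array well above background, so that the fitted size is not a measured fold. Il12b, Il23a and Ebi3 are red in both LPS panels, Il12a in that of fld cells, and Il23a alone in the panel of fld minus control with LPS.

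Levels of fld and control cells with LPS were compared next, which does not test whether the LPS response differs by genotype. That difference of responses was -1.24 for Il23a (limma adjusted p = 0.335), and it rests on untreated signals below background. With LPS, Il23a was lower in fld cells, at 17.3% to 28.7% of the array's 75th percentile against 30.1% to 53.2% in control cells. The mean log2 level was -2.18 ± 0.30 in fld cells and -1.30 ± 0.34 in control cells (SD, n = 4 each). The log2 difference was -0.88 (SE 0.27, 95% interval -1.46 to -0.30), which is 0.543 times the control level (limma adjusted p = 0.0376). The groups did not overlap, but the highest fld array at -1.80 lay close to the lowest control array at -1.73, and an exact two-sided permutation test gave p = 0.0286, the smallest it can give. Over all features, 0.916% were called lower in fld cells with LPS, 17.0% were called in either direction and 20.3% did not overlap.

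The direction of the Il23a difference held under every alternative run, from -0.35 to -1.28, but its call was lost under 12 of them. Among these were the fits without control LPS replicate 1 (-0.75, adjusted p = 0.105), 2 (-0.86, 0.0759) or 4 (-0.89, 0.0767), without fld LPS replicate 2 (-0.90, 0.0687), 3 (-0.76, 0.0937) or 4 (-0.86, 0.0848), and without control untreated replicate 4 (-0.88, 0.0505), all limma adjusted p values. Without both arrays labelled fld replicate 4 it was -0.86 (adjusted p = 0.105), with outlier flags kept -0.88 (adjusted p = 0.0624), and with normexp -0.36 (adjusted p = 1.0), or -0.35 with extreme backgrounds reset (adjusted p = 0.133). Normexp was run with an offset of 50, which narrows log2 differences of dim probes, so the normexp values are not on the scale of the others. Centring arrays on their medians gave -1.28 (adjusted p = 0.00510) and quantile normalisation -1.15 (adjusted p = 0.00711). Over all features, 36.9% were called lower in fld cells with LPS after median centring and 3.7% after quantile normalisation.

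**Figure D4:**
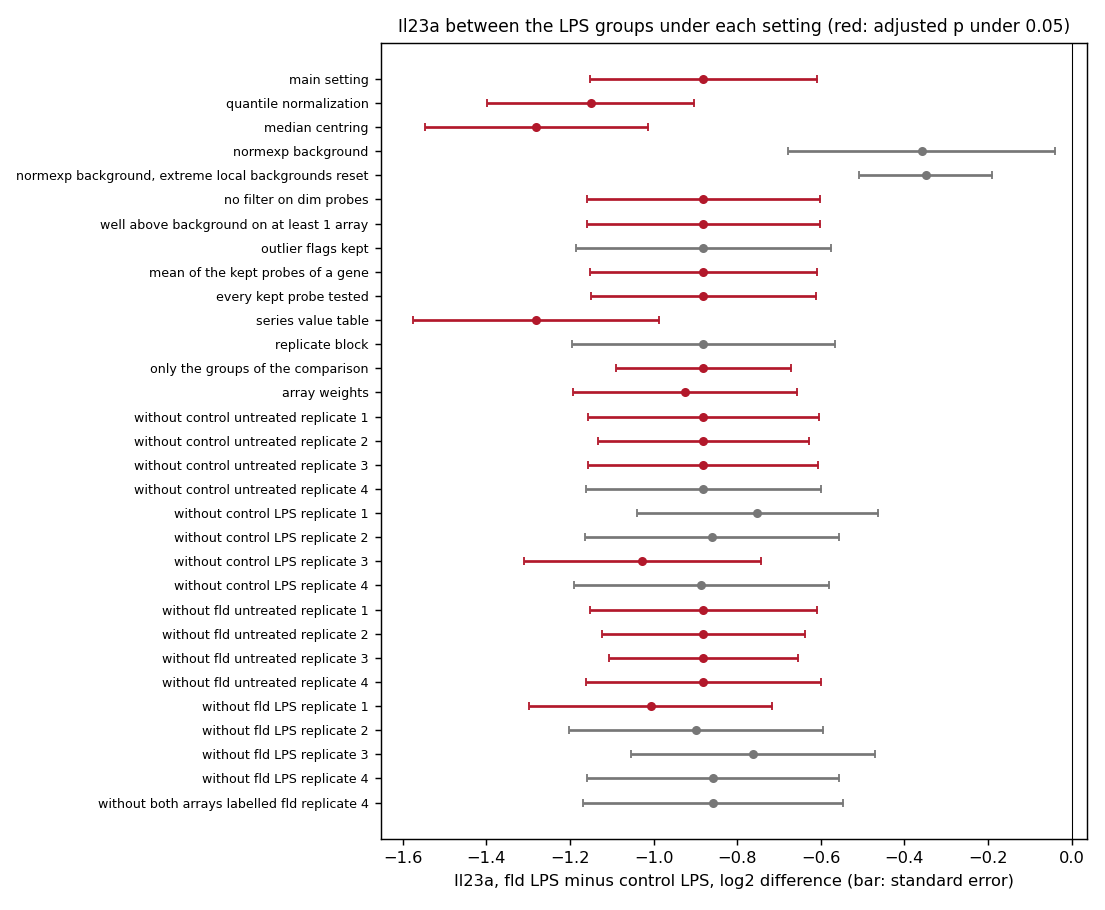
Log2 difference of Il23a, fld minus control cells with LPS, under the main setting and each alternative; bars are standard errors and red marks an adjusted p under 0.05. All values lie below 0, and those nearest to 0 are the 2 with normexp background correction. Their offset of 50 narrows log2 differences of dim probes, so they are not on the scale of the others.

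None of the other subunit genes differed past the threshold between fld and control cells with LPS. The log2 difference was -0.11 for Il12b (95% interval -1.06 to 0.84), 0.07 for Il12a (-0.23 to 0.37), 0.27 for Il27 (-0.13 to 0.66) and 0.03 for Ebi3 (-0.37 to 0.43), and each of these 4 signs turned under at least 1 alternative. Leaving out fld LPS replicate 3, the array where the probe was not well above background, gave an Il12b difference of 0.37 (limma adjusted p = 0.535). Of the IL-23 subunits, Il23a was thus called lower in fld cells with LPS and Il12b was not called, and a difference between these effects was not tested.

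In untreated cells no subunit gene passed the test between fld and control mice, where 5.12% of all features were called and 4.91% were called higher in fld cells. The log2 difference was -0.35 for Il12a (95% interval -0.65 to -0.05, limma adjusted p = 0.191), 0.22 for Il27 (-0.18 to 0.61) and 0.27 for Ebi3 (-0.14 to 0.67). Without both arrays labelled fld replicate 4 these were -0.30, 0.25 and 0.24, and between the LPS groups the differences were 0.03 for Il12a, -0.32 for Il12b, 0.11 for Il27 and 0.25 for Ebi3, with none past the threshold. Il12b and Il23a were not well above background on any untreated array of either genotype, so no fold is given for them. The LPS response of fld cells minus that of control cells was -1.24 for Il23a (95% interval -2.10 to -0.39, limma adjusted p = 0.335), -0.84 for Il12b (adjusted p = 0.725), -0.24 for Ebi3 (adjusted p = 0.834) and 0.05 for Il27 (adjusted p = 0.971). No feature of 17465 passed that test at an adjusted p under 0.05 in limma, and 1629 had an unadjusted p under 0.05. For Il23a and Il12b this difference rests on untreated signals below background.

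In the order of the group means, Il23a was highest in control cells with LPS, followed by fld cells with LPS, and its untreated groups did not separate. The LPS groups of Il12b, of Ebi3 and of Il27 each overlapped between genotypes, as did their untreated groups. Il12a had its highest mean in fld cells with LPS (-0.71 ± 0.11), then control cells with LPS (-0.78 ± 0.17), untreated control cells (-0.85 ± 0.31) and untreated fld cells (-1.20 ± 0.13, SD, n = 4 each), and each neighbour in that order overlapped the next.

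Across arrays, Il12b and Il23a ran together with a Pearson r of 0.943 over 15 arrays, but over the 8 LPS arrays r was 0.334. The r of Ebi3 was 0.899 with Il23a and 0.806 with Il12b over 15 and 16 arrays, and over the 8 LPS arrays it was -0.05 and -0.36. All these arrays fall into LPS and untreated arrays, and the arrays of a group share a slide. Neither Il12b nor Il23a was well above background on any untreated array. Their r over all arrays, also with other features, thus sets background-level values against LPS values. The 5 features most like Il23a over 15 arrays were Rcl1, Il1bos, Steap4, Alpk2 and Ttc39b (r of 0.989 to 0.985). Those most like Il12b were Pde4b, Ptges2, Aars, Hmx3 and Id3 (r of 0.969 to 0.965). The closest to Ebi3 was Map3k8 (r of 0.971 over 16 arrays), the closest to Il27 were Rmi2 and Adgra2 (0.958 and 0.957 over 16 arrays), and Il12a had no feature above the 0.865 of Rnf125 over 14 arrays. These likenesses are descriptions over 14 to 16 arrays.

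The receptor chains of the family were measured by 1 probe each. Il23r, the IL-23-specific chain, rose well above background on 0 of the 16, and Il12rb2, the IL-12-specific chain, on 3 at most, so 3 of 5 receptor genes were tested. Il6st, which encodes the gp130 chain used by IL-27, rose with LPS in fld cells to a mean log2 level of 2.10, against 1.38 untreated (difference 0.72, limma adjusted p = 0.00252), and its difference in control cells was 0.28 (adjusted p = 0.204). Il27ra, the other IL-27 receptor chain, fell in fld cells to -0.83 with LPS, against -0.29 untreated (difference -0.55, limma adjusted p = 0.0182), and its difference in control cells was -0.29 (adjusted p = 0.214). Il12rb1, the chain shared by the IL-12 and IL-23 receptors, passed neither test, with -0.49 in fld and 0.19 in control cells. The fld response minus the control response was 0.44 for Il6st (limma adjusted p = 0.578) and -0.26 for Il27ra (adjusted p = 0.788), and neither passed the threshold.

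Of 8 kinase, STAT and SOCS genes that act behind these receptors, 5 rose and 2 fell with LPS in fld cells, and 6 rose and 1 fell in control cells. Over all features 21.6% were called higher and 18.0% lower in fld cells, and 14.5% higher and 14.9% lower in control cells. The median log2 difference of the list was 0.60 in fld and 1.03 in control cells, beside 0.06 and 0.03 over all features. Socs3, an inhibitor of gp130 signalling, rose by 2.54 in fld and 2.37 in control cells on the log2 scale. Jak2, a kinase bound to the IL-12 and IL-23 receptors, rose by 1.56 in fld and 2.11 in control cells, and Stat4, the main transducer of IL-12, by 0.80 in fld and 1.15 in control cells, with a largest limma adjusted p of 0.00798 among these genes. Socs1, an inhibitor of JAK kinases, rose by 1.29 in control cells (limma adjusted p = 0.00176), while its difference in fld cells was 0.02, and the difference of the 2 responses was -1.27 (adjusted p = 0.256). Untreated fld cells already had more Socs1 signal than untreated control cells, with mean log2 levels of 4.36 and 3.42 (difference 0.94, limma adjusted p = 0.0349), a call lost under quantile normalisation (adjusted p = 0.0602), median centring (0.0954) and without both arrays labelled fld replicate 4.

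Among 25 transcription factors and co-factors known at IL-12 family genes, 12 rose and 3 fell with LPS in fld cells, and 12 rose and 2 fell in control cells. The median difference was 0.28 in fld and 0.43 in control cells, beside 0.06 and 0.03 over all features, of which 21.6% rose and 18.0% fell in fld cells and 14.5% rose and 14.9% fell in control cells. Nfkbiz, an inducible NF-kB co-factor, rose by 1.86 in fld and 2.27 in control cells, Nfkb2, an NF-kB subunit, by 0.91 in fld and 1.30 in control cells, and Bhlhe40, a repressor of Il10, by 1.20 in both. Irf1, an activator of Il12a and Il12b, fell by 1.53 in fld and by 0.84 in control cells. The largest limma adjusted p among these changes was 0.00209. Nfkb1, chosen after its values were seen, was the transcription factor called between untreated fld and untreated control cells (mean log2 levels 3.69 and 3.30, difference 0.39, limma adjusted p = 0.0381), a call lost under quantile normalisation (adjusted p = 0.137) and median centring (0.322).

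Of 10 genes that raise or lower IL-12 output or act beside it, 9 cytokines and the receptor Cd40, 5 rose and 1 fell with LPS in fld cells, and 6 rose and 1 fell in control cells, with a median difference of 0.58 in fld and 1.04 in control cells. The shares over all features were the same 21.6% higher and 18.0% lower in fld cells, and 14.5% higher and 14.9% lower in control cells, with medians of 0.06 and 0.03. Il6 rose by 3.26 in fld and 5.05 in control cells, and Il10, whose product restrains Il12b, by 3.36 in fld and 2.07 in control cells. Il1b rose by 2.07 in fld and 2.47 in control cells and Tnf by 0.84 in fld and 1.54 in control cells, with a largest limma adjusted p of 0.00400. The fld response minus the control response was -1.79 for Il6, 1.29 for Il10, -0.395 for Il1b and -0.69 for Tnf. The smallest limma adjusted p among these was 0.440, and no gene of the 4 lists passed that test. Without both arrays labelled fld replicate 4, the counts with LPS in fld cells were 5 higher and 2 lower for these cytokine genes, 9 higher and 3 lower for the transcription factors, 4 higher and 2 lower for the signalling genes, and 1 in each direction for the receptors. Of the genes named from the 4 lists, those called with LPS in fld cells were called without these arrays too, among them Il10 (3.04, limma adjusted p = 6.93e-05), Tnf (0.67, adjusted p = 0.0362), Il6st (0.77, adjusted p = 0.00921) and Il27ra (-0.54, adjusted p = 0.0362). Between untreated groups, Il1b then passed the test (0.74, adjusted p = 0.0412), against 0.65 and an adjusted p of 0.0678 with them. No gene of the 4 lists was called between fld and control cells with LPS, with or without these arrays. With arrays centred on their medians, 21 of them were called lower in fld cells with LPS, 12 of 25 transcription factors, 4 of 8 signalling genes, 3 of 10 cytokine genes and 2 of 3 receptor genes, and none higher. Under that setting 36.9% of all features were called lower in fld cells with LPS.

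**Figure D5:**
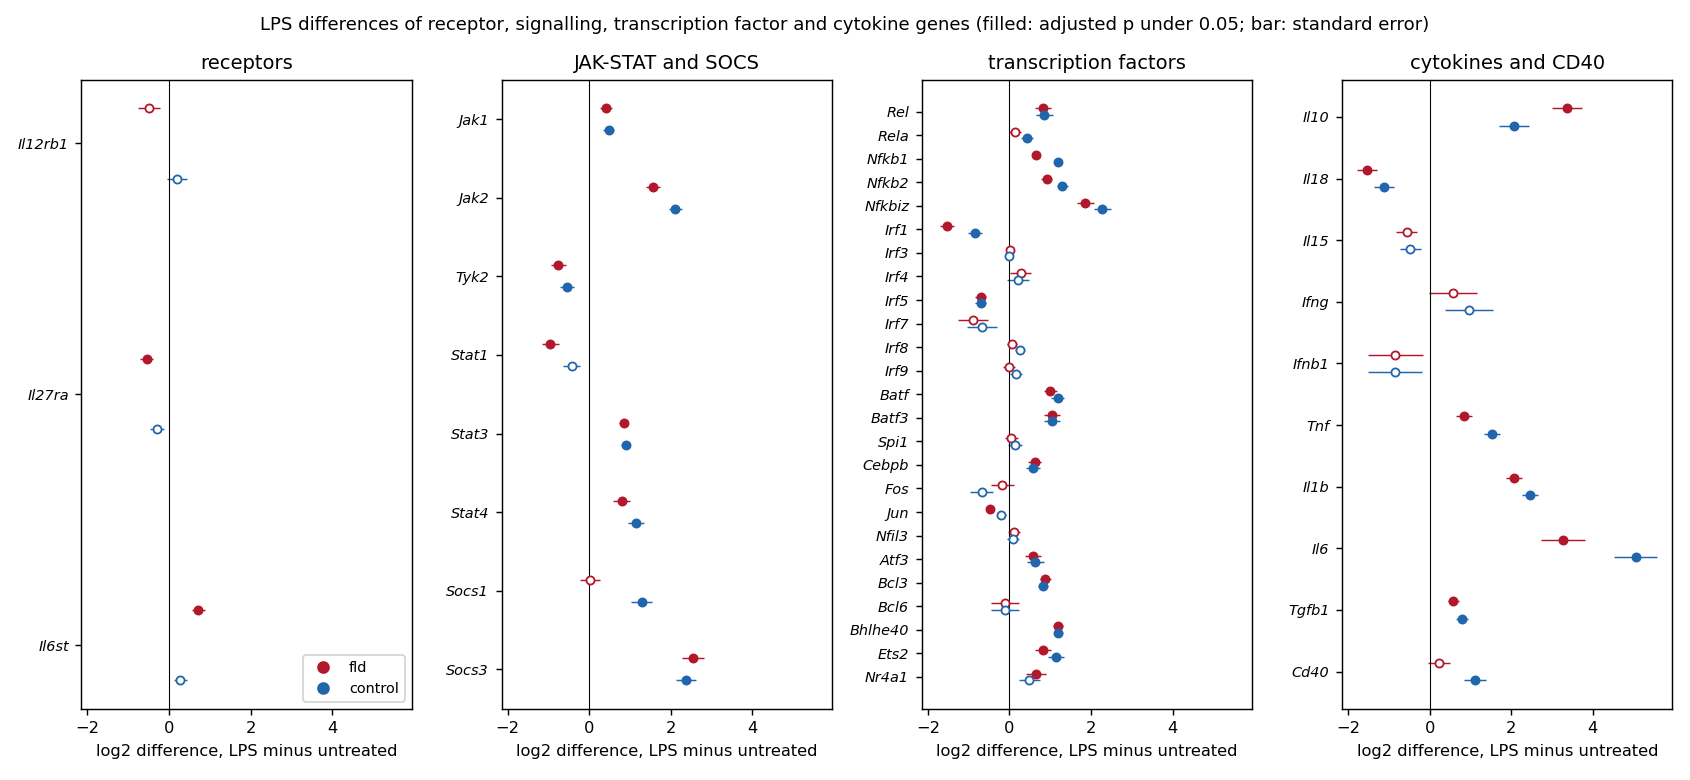
Log2 difference with LPS of the receptor, signalling, transcription factor and cytokine genes tested, in fld (red) and control cells (blue). Bars are standard errors and filled points have an adjusted p under 0.05. Il6, Il10, Socs3, Il1b and Nfkbiz lie farthest to the right and Irf1 and Il18 farthest to the left.

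Macrophage markers were well above background on all 16 arrays for 9 of 9 genes, among them Adgre1, Csf1r and Lyz2. Their summed level, in multiples of the array's 75th percentile, was 1348 to 1629 in fld cells with LPS, 1083 to 1180 in untreated fld cells, 1096 to 1564 in control cells with LPS and 956.5 to 1040.0 in untreated control cells. That sum is mostly Lyz2 and Cd14, whose mean log2 levels were 9.49 and 9.39 in fld cells with LPS and 9.19 and 8.38 in untreated fld cells. The means of the other 7 markers were lower with LPS than untreated in both genotypes, as for Csf1r, at 3.57 in fld cells with LPS and 5.99 in untreated fld cells, and at 4.17 in control cells with LPS and 5.87 in untreated control cells. Markers of other cells were present as well. All 5 B cell markers were well above background on every array, with a sum of 60.0 to 85.4 in fld cells with LPS and 91.7 to 128.7 in untreated fld cells, and of 79.7 to 88.3 in control cells with LPS and 86.7 to 154.9 in untreated control cells. Of 9 dendritic cell markers 8 were well above background on every array and Clec9a on none, and their sum was 8.78 to 12.4 in fld cells with LPS, 7.64 to 9.19 in untreated fld cells, 8.46 to 11.5 in control cells with LPS and 7.54 to 8.66 in untreated control cells. Ccr7 was the brightest of them, with mean log2 levels of 2.76 and 2.15 in fld cells with LPS and untreated. In control cells these were 2.68 and 2.25. The means of Itgax, Btla and Dpp4 were lower with LPS in both genotypes, and those of Flt3, Zbtb46 and Xcr1 were higher. The mean of Cd209a was higher with LPS in fld cells and lower in control cells. The 4 neutrophil markers on the array, led by S100a8, summed to 18.5 to 26.5 in fld cells with LPS, 1.25 to 1.69 in untreated fld cells, 8.98 to 15.8 in control cells with LPS and 1.30 to 2.59 in untreated control cells, and Ngp was well above background on 1 array. That sum is mostly S100a8, and Mmp8 ran the other way, with a mean log2 level of -2.91 in fld cells with LPS and -1.26 in untreated fld cells, and of -3.72 in control cells with LPS and -0.84 in untreated control cells. Of 6 T and NK cell markers only 2 were well above background on every array and Ncr1 on none, so their sum includes values near background. It was 0.945 to 2.28 in fld cells with LPS and 0.781 to 1.08 in untreated fld cells. In control cells it was 0.453 to 0.674 with LPS and 0.475 to 0.766 untreated. All 5 mast cell markers were well above background on every array, summing to 10.7 to 31.7 in fld cells with LPS, 7.65 to 25.7 in untreated fld cells, 21.4 to 37.7 in control cells with LPS and 4.49 to 24.5 in untreated control cells. Of 5 mesothelial markers 1 was well above background on every array and Wt1 on none, and their sum did not pass 0.726 on any array. In such bulk samples fewer cells of a type and less RNA per cell cannot be told apart, and the part of these cells in the IL-12 family values was not tested.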

How the data were processed

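The authors' deposited scanner files, of array design 014868, hold a background-subtracted and detrended intensity per spot. Per the file headers it was made with Feature Extraction 9.5.1.1, a program that the submitters' processing notes name as well. The deposited series value table holds a linear signal that equals this intensity divided by each array's median. Control spots were left out and values with an outlier flag (1.34%) set to missing. The log2 intensity minus the array's 75th percentile was averaged over the spots of a probe. A probe counted as well above background on an array when more of its spots were than were not. Probes so on all 4 arrays of a group were kept (25534 of 41174), and the brightest stood for its gene. Groups came from the sample titles. Limma 3.58.1 in R 4.3.3 gave each group 1 mean over 16 arrays, with p-values adjusted over 17465 features in 5 comparisons, after a test on simulated data. Each named list is given by its counts, with values for every receptor gene and for the 4 called genes of largest change in either LPS comparison. Alternatives covered normalisation, background, filters, probe choice, the value table, array weights, the groups fitted, a replicate block and each array left out. The members and lists were chosen with earlier results of these data known. The number of arrays limits the precision.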

Additional observations from a re-analysis of the deposited data

How the results depend on the processing

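Of 745 values of the 5 subunit genes under alternatives, 691 kept their direction and their side of the threshold, 20 lost a call and 34 changed sign, none of the sign changes in a called difference. Median centring, and the value table with the same result, gave -0.03 for Il27 with LPS in fld cells and, for fld against control with LPS, -0.33 for Il12a, -0.13 for Il27 and -0.37 for Ebi3, and -0.17 for the genotype difference in the LPS response of Il27. Quantile normalisation gave -0.00 for Il12a between the LPS groups. Normexp gave -0.017 for Il23a between untreated groups, 0.17 for Il12b between LPS groups and 0.025 for its response difference; with extreme backgrounds reset these were -0.020, 0.30 and 0.15, with -0.057 for Ebi3 between LPS groups and -0.031 for the response difference of Il27. That difference was -0.16 with array weights and -0.15 without both arrays labelled fld replicate 4, where the one of Ebi3 was 0.016 (-0.34 to -0.014 without 1 array). Leaving out 1 array gave ranges of -0.022 to 0.17 for Il12a with LPS in control cells, of -0.007 to 0.12 for Il12a, -0.46 to 0.37 for Il12b and -0.075 to 0.25 for Ebi3 between LPS groups, and of -0.11 to 0.21 for the response difference of Il27. Causes were not tested.

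Called features were 5142 with LPS in control cells (1107 with normexp; 4159 to 5882 without 1 array), 6919 in fld cells (1357 with normexp; 5322 to 7273), 895 between untreated groups (552 quantile, 0 normexp, 43 with reset, 1687 with only these groups, 2278 with array weights; 354 to 1614 without 1 array) and 2966 between LPS groups (8448 median centring, 8634 value table, 0 normexp; 2126 to 3252). The genotype difference had 0 (14 quantile, 7 median centring, 7 value table, 11 array weights; 0 to 1 without 1 array). Of calls between LPS groups 94.6% were higher in fld cells, against 23.6% with median centring and 73.6% with quantile normalisation, and of LPS calls in fld cells 54.6% were higher, against 29.6% with median centring. Between untreated groups 95.8% were higher, against 85.2% with median centring.

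Whether replicate numbers mark the same mouse is not stated, and the arrays were not treated as paired, since not every same-numbered pair correlated above 0.1. Deviations of same-numbered arrays correlated at -0.30 to 0.34 over all pairs of groups. Between LPS and untreated control arrays they correlated at 0.0884 to 0.262, and 3 of 4 arrays correlated best with their own number, against 1 of 4 between LPS and untreated fld arrays, where r was -0.0948 to 0.206. With the replicate block 10 features passed the genotype difference in place of 0, and Il23a between LPS groups was -0.88 with an adjusted p of 0.0845 in limma. The dim probes of Il12b and Il23a limit what can be said of untreated cells.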
